A study of Mus musculus with 5 samples.

Results

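The Serpina3 genes of the mouse form a cluster of serine protease inhibitors on chromosome 12, and the members described here were Serpina3n, Serpina3g, Serpina3f, Serpina3i, Serpina3m, Serpina3c, Serpina3k and Serpina3b. They were chosen as paralogues of Serpina3n, with their difference between NT-3N and Control already known, so that difference is given as a description with no test. Probes were matched through the accessions in the scanner files, which found 7 of the 8 genes with 9 probes, of 22911 gene symbols and 56605 probes on the array. No probe was matched to Serpina3g through the RefSeq table used. The probe that the files list under NM_009251 is not in that table; by background knowledge this was an earlier RefSeq record of Serpina3g, so its values are given apart, under the accession, and not counted with the members.

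Gene expression was measured in colon tissue of wild-type C57BL/B6 mice on 5 one-colour Agilent arrays, 1 mouse each. The 2 Control mice were untreated per a figure legend of the study, and no vehicle injection is named. Effects of being injected therefore cannot be told apart from those of the agonist. The 3 NT-3N mice had received an intravenous injection of NT-3N, which is human IL-11 with a modified linker that activates the IL-11 receptor, and their colon was taken 3 hr later. The series design gives the dose as 10 mg and the methods give the same figure in micrograms, so the dose is uncertain. The mice were young adults per the study's text, and the labels give neither age nor sex.

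Serpins are suicide inhibitors: a protease cuts their exposed reactive loop, and the serpin then locks it in an inactive complex. The human relative SERPINA3, antichymotrypsin, is a secreted acute phase protein that inhibits cathepsin G and mast cell chymase, and its gene is a known target of STAT3, the factor that IL-6 family cytokines activate through gp130. In the mouse this gene has been duplicated many times, and the copies differ mainly in the reactive loop and hence in the proteases they can bind.

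Every NT-3N array lay above both Control arrays for 6 of the 7 matched members, and the exception was Serpina3b. Over all 32917 features tested, 13.5% showed the same separation. The same 6 members had a difference above 0, as had 46.4% of all features. In all 6 it was at least 2-fold, as in 1.39% of all features. The probes used for Serpina3c, Serpina3f, Serpina3i and Serpina3k were not well above background on at least 1 Control array. The probe of Serpina3k was well above background on neither Control array, and those of Serpina3c, Serpina3f and Serpina3i on only 1. The filter asked for 2 arrays, so these probes passed it only because of their NT-3N arrays. With another background correction, given below, the log2 differences of these genes lay between 0.33 and 0.97. In limma, 1 of the 7 members, Serpina3n, lay past an adjusted p of 0.05 in the higher direction, as did 0.125% of all features. This last count ran from 0 without NT-3N replicate 3 (2384 features had an unadjusted p under 0.05) to 3 without Control replicate 1, where Serpina3m and Serpina3c were also called, and was 2 without Control replicate 2, with Serpina3m. The members were chosen on this contrast, and nothing is read from these counts. In whole tissue, more cells of a type and more RNA per cell cannot be told apart.

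All 9 member probes were well above background on the 3 NT-3N arrays, and 4 of them were so on both Control arrays. Signals are log2 values after quantile normalization, and since each probe has its own brightness they are compared between arrays and not between genes.

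**Figure D1:**
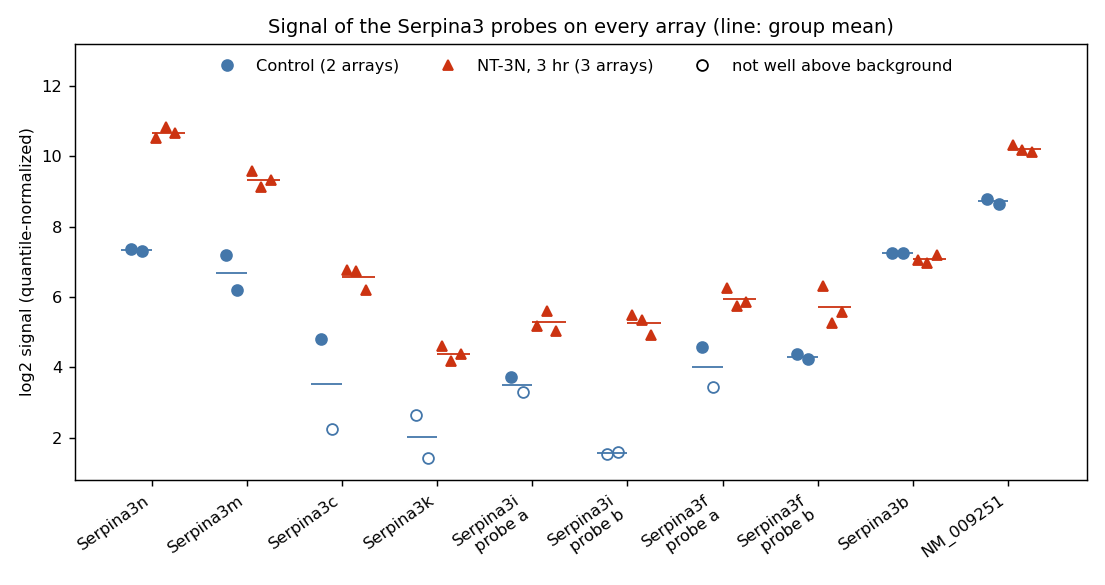
Log2 signal of each Serpina3 probe (horizontal axis) on each of the 5 arrays, with circles for Control, triangles for NT-3N, open symbols for spots not well above background and lines for group means. Serpina3n lay at 7.36 and 7.32 in Control and at 10.53 or above in NT-3N, and Serpina3b is the only probe plotted whose NT-3N values lie below Control; heights of different probes are not comparable.

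Serpina3n encodes a secreted inhibitor of granzyme B and leukocyte elastase. Its log2 signal was 7.36 and 7.32 in the Control mice and 10.53, 10.83 and 10.66 in the NT-3N mice. The groups were far apart and each was tight, with a Control mean of 7.34 ± 0.030 (SD, n = 2) and an NT-3N mean of 10.67 ± 0.15 (SD, n = 3). The log2 difference was 3.33 with a limma standard error of 0.12, which is 10.1-fold. It kept this size with each array left out, between 3.25 and 3.40.

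Serpina3m, the direct neighbour of Serpina3n in the cluster, had log2 signals of 7.20 and 6.20 in Control and 9.57, 9.13 and 9.32 in NT-3N. The groups did not overlap, but the Control mice differed from each other by 1.00. The log2 difference was 2.64 with a standard error of 0.30, or 6.24-fold, and lay between 2.14 without Control replicate 2 and 3.14 without Control replicate 1.

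Serpina3c, which has been described as a kallikrein-binding protein, had log2 signals of 4.81 and 2.26 in Control and 6.76, 6.73 and 6.21 in NT-3N. The probe was well above background in Control replicate 1 and not in Control replicate 2, so the Control level is poorly fixed. The log2 difference of 3.03 had a standard error of 0.70. It fell to 1.76 when Control replicate 2 was left out and became 4.31 when Control replicate 1 was left out.

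Serpina3k encodes contrapsin, a plasma inhibitor of trypsin-like proteases that is made mainly in the liver. Its probe read 2.64 and 1.43 in Control, not well above background on either array, and 4.61, 4.18 and 4.40 in NT-3N, well above background on all 3. It was therefore well above background in the NT-3N mice only. Its level there was higher at least 2.05-fold, taking as bound the lowest signal well above background on each Control array. This bound holds for the background correction used here only: with normexp correction the log2 difference was 0.33.

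Serpina3i was measured by 2 probes. The brighter one read 3.72 and 3.31 in Control, the latter not well above background, and 5.19, 5.61 and 5.05 in NT-3N, a log2 difference of 1.77 with a standard error of 0.30. Both probes placed the NT-3N mice above Control, but they differed in the Control signal. The other probe read 1.53 and 1.61 in Control, not well above background on either array, and 5.49, 5.36 and 4.93 in NT-3N. It was higher by a factor of at least 3.72, a bound that holds for the background correction used here only.

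Serpina3f also had 2 probes. The brighter one read 4.57 and 3.45 in Control, the latter not well above background, and 6.25, 5.75 and 5.86 in NT-3N. The other read 4.37 and 4.24 in Control and 6.32, 5.26 and 5.56 in NT-3N. The log2 difference was 1.94 with a standard error of 0.37 on the first and 1.41 with a standard error of 0.34 on the second, and on neither did the groups overlap. Without Control replicate 1 the first gave 2.51 and without Control replicate 2 it gave 1.38.

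For Serpina3b the groups lay close together. Its log2 signal was 7.26 and 7.26 in Control and 7.06, 6.97 and 7.19 in NT-3N. All 3 NT-3N mice lay slightly below both Control mice, and the share of all features with this order is not given. The log2 difference was -0.19 with a standard error of 0.14, so a change in either direction is not resolved. The probe was well above background on all 5 arrays.

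The probe listed under NM_009251 was well above background on all 5 arrays. Serpina3g, to which background knowledge ties it, encodes a serpin that lacks a secretion signal and protects lymphocytes from cysteine cathepsins released by lysosomes. The probe read 8.80 and 8.66 in Control and 10.32, 10.18 and 10.11 in NT-3N. The groups were separate, with a log2 difference of 1.48 and a standard error of 0.11, or 2.78-fold.

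The spread within groups was unlike between the members. Among the 3 NT-3N mice the range of log2 signal over the 9 member probes ran from 0.22 for Serpina3b to 1.07 for the second Serpina3f probe, and NT-3N replicate 1 was the highest array for Serpina3m, Serpina3c, Serpina3k, both Serpina3f probes and the second Serpina3i probe. NT-3N replicate 2 was the highest for Serpina3n. Between the Control mice, replicate 1 was above replicate 2 on 8 of the 9 probes, as it was on 51.1% of the 41590 probes tested. The gap was 2.55 for Serpina3c, 1.21 for Serpina3k and 1.12 for the brighter Serpina3f probe, against 0.042 for Serpina3n. Control replicate 1 also held the signal of 5 pancreatic enzyme genes, whose summed linear signal was 46450 there, 217.6 in Control replicate 2 and between 221.3 and 4418 in NT-3N. The part of this in the Serpina3 values was not tested.

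Probe sequences were not used here, so how far transcripts of 1 paralogue bind the probe of another was not tested. The size of the dim members depended strongly on the background correction. In the main processing the log2 difference was 3.03 for Serpina3c, 1.94 for Serpina3f and 1.77 for Serpina3i. It was 2.36 for Serpina3k, whose Control signal was not well above background. With normexp correction on the median spot signal and an offset of 50, which compresses dim signals, the log2 difference was 2.93 for Serpina3n, 2.06 for Serpina3m, 0.97 for Serpina3c, 0.71 for Serpina3f, 0.46 for Serpina3i and 0.33 for Serpina3k. All 6 remained higher in NT-3N.

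The promoters are shown because the genes are copies of each other, and 1 of them, Serpina3b, was not higher in NT-3N. A window from 250 bases before to 50 bases after the annotated start was given by RefSeq (GRCm38.p6) for 6 of the 8 genes, without Serpina3k and Serpina3m. The windows of Serpina3n and Serpina3c were the most alike of the 15 pairs, with 91.7% of the 300 bases identical in a global alignment. Those of Serpina3n and Serpina3b shared 71.3%. This was more than Serpina3n shared with Serpina3i (69.3%) or Serpina3f (66.7%), both of which were higher in NT-3N. Serpina3g and Serpina3n shared 150 bases, with 205 bases aligned. The window of Serpina3n (chr12:104406458-104406757, plus strand) is given first and that of Serpina3b (chr12:104127746-104128045, plus strand) second, 5′ to 3′, with capitals for matches to the letters TTCNNNGAA or TTNCNAGAA and for the longest run of bases shared by all 6 windows.
Serpina3n: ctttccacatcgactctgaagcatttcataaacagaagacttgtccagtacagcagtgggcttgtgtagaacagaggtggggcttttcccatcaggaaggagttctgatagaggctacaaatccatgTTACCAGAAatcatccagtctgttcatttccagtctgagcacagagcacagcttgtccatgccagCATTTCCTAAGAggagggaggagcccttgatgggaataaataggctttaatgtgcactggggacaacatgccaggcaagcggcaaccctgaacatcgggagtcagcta
Serpina3b: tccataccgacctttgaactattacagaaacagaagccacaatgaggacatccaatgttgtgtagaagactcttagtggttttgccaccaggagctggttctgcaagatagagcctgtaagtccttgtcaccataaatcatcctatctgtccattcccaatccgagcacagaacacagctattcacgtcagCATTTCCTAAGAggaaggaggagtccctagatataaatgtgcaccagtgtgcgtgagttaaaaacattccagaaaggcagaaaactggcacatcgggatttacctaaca

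TTCNNNGAA is the palindrome that STAT factors recognise. It was found in the windows of Serpina3f, Serpina3g and Serpina3i, as in 8.3% of all 32851 promoter windows, and not in those of Serpina3n, Serpina3c and Serpina3b. A different pattern, TTNCNAGAA, was chosen after the sequences were seen, from the letters these copies share, and searched on both strands. It matched at 1 place in the windows of Serpina3n, Serpina3c, Serpina3f, Serpina3g and Serpina3i and not in that of Serpina3b, and in 5.07% of all windows. Its matches among the members were known when it was chosen, so nothing is read from them. The windows of Serpina3j and Serpina3a, paralogues of the cluster that are no members, held no match to any of the patterns searched here. The Serpina3j probe was higher in NT-3N by a log2 difference of 1.54. A link between these patterns and the expression values was not tested. In Serpina3f, Serpina3g and Serpina3i the match to TTNCNAGAA is also the match to TTCNNNGAA. The 30 bases around this place are given to compare the copies, with the match in capitals.
Serpina3n (chr12:104406574-104406603, plus strand): acaaatccatgTTACCAGAAatcatccagt
Serpina3c (chr12:104153974-104154003, minus strand): ataaatccataTTACCAGAAatcatccagt
Serpina3g (chr12:104236103-104236132, plus strand): ataagttatagTTCCCAGAAatcacccggt
Serpina3i (chr12:104263009-104263038, plus strand): gtaagtgcttgTTCCCAGAAatcacccagt
Serpina3f (chr12:104214412-104214441, plus strand): atcagttctatTTCCTAGAAatcacccatt
Serpina3b (chr12:104127862-104127891, plus strand): gtaagtccttgtcaccataaatcatcctat
The match lay at -123 from the annotated start in Serpina3n, -120 in Serpina3c, -33 in Serpina3g, -102 in Serpina3i and -121 in Serpina3f. For Serpina3f a further annotated start has a window of its own, and from that start the same match lay at -210. The copies descend from each other, so these matches are not independent, and a match is a description of letters and not of a bound site.

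The longest run shared by all 6 windows, CATTTCCTAAGA, was looked for after the sequences were seen. It stood in Serpina3b too, at -59 from the annotated start, and at -58 in Serpina3n and 33 bases into the transcript in Serpina3g. It was found in 12 of the 32851 windows, or 0.0365%. These 12 include the 6 windows it was taken from and the further window of Serpina3f, so nothing is read from this share. TTGCNNAA, a form of the C/EBP site, was found in Serpina3f and Serpina3b and in 10.8% of all windows on either strand. A form of the NF-kB site was found in Serpina3n, Serpina3g and Serpina3i and in 1.63% of all windows.

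Along the chromosome the cluster starts with Serpina3a and Serpina3b and ends with Serpina3m and Serpina3n in the order of the RefSeq table. The 3 probes of Serpina3a were well above background on none of the 5 arrays. Serpina3j and the transcribed pseudogene Serpina3h, which lie inside the cluster, were well above background on all 5 arrays. Serpina3j read 4.52 and 4.90 in Control and 6.07, 6.38 and 6.30 in NT-3N, with no overlap and a log2 difference of 1.54 with a standard error of 0.21. Serpina3h read 6.44 and 5.99 in Control and 6.72, 6.70 and 6.74 in NT-3N, a log2 difference of 0.50. Neither passed over all features (limma adjusted p of 0.088 and 0.47).

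Of the 10 protein-coding genes on each side of the cluster, 16 of 20 passed the filter on dim probes, and limma called 0 of them higher and 0 lower, with 0 at an unadjusted p under 0.05. Over all features 4.95% were higher and 4.67% lower at that unadjusted threshold. On the side of Serpina3a lie the Serpina1 genes, which encode antitrypsin. Serpina1a read 7.77 and 5.61 in Control and 8.16, 7.12 and 7.80 in NT-3N, Serpina1c had a log2 difference of 0.98 and Serpina1e of 0.89, and in all 3 the groups overlapped. On the side of Serpina3n, Dicer1, which encodes the nuclease of microRNA processing, differed by -0.063 and Glrx5 by 0.035, within the spread of the arrays.

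**Figure D2:**
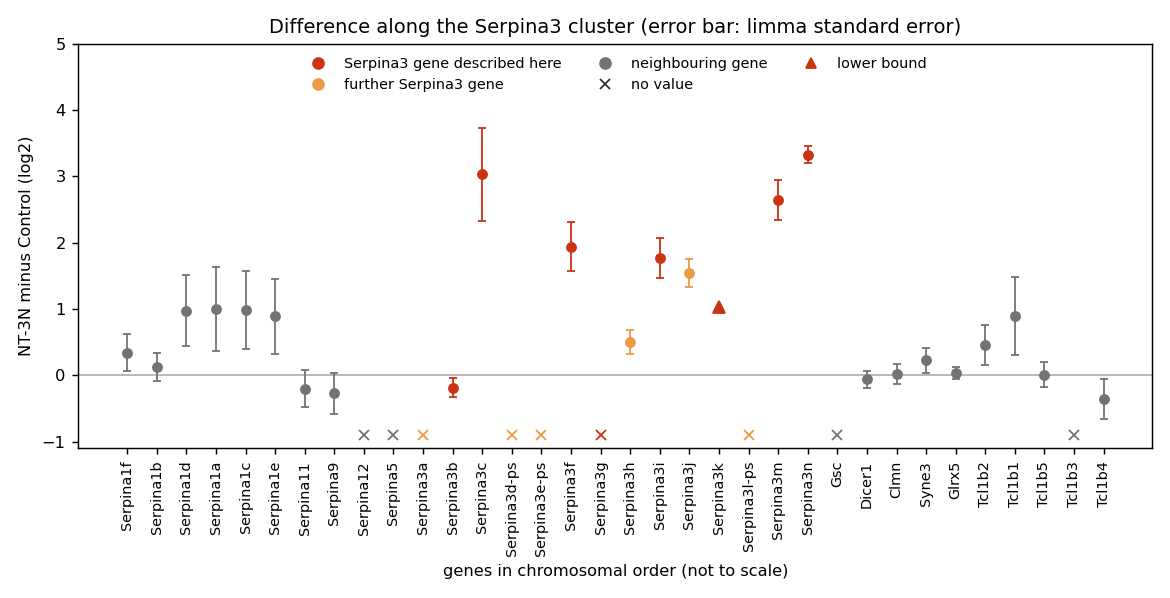
Log2 difference of NT-3N minus Control (vertical axis) for the Serpina3 genes and 10 protein-coding genes on each side, in chromosomal order; bars are limma standard errors, crosses mark genes with no value and the triangle is the lower bound of Serpina3k. From Serpina3c to Serpina3n every gene with a value lies above 0, Serpina3b lies at -0.19 and Dicer1 at -0.063.

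Other serpins were compared as the rest of the family. Of 15 other clade A genes on the array 10 passed the filter, with a median log2 difference of 0.23 against -0.019 over all features, and limma called 0 of them, with 0 at an unadjusted p under 0.05. The largest differences among those well above background on all arrays were the Serpina1 values above. The Serpina1 genes, Serpina9 and Serpina11 were also counted among the chromosomal neighbours, so these comparisons are not separate. Of 38 serpins of other clades 21 passed, with a median of 0.062, and limma called 0, with 3 higher and 0 lower at an unadjusted p under 0.05. Serping1, which inhibits complement C1, differed by 0.43 (limma adjusted p = 0.25) and Serpinh1, a collagen chaperone, by -0.39 (limma adjusted p = 0.59).

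The proteases that these serpins or their human relative inhibit showed no call. Of 19 genes 18 passed the filter, with 12 higher and 6 lower, a median log2 difference of 0.068, and 1 higher and 0 lower at an unadjusted p under 0.05. The largest differences among those well above background on all 5 arrays were those of Ctrb1, a chymotrypsinogen, with -2.12, and of the mast cell chymases Mcpt4 with 0.63 and Mcpt1 with 0.43 (limma adjusted p from 0.70 to 0.95). Ctrb1 read 12.43 and 6.92 in Control and 8.85, 6.91 and 6.91 in NT-3N, so its difference rested on Control replicate 1. Cathepsin G (Ctsg) differed by 0.33, granzyme B (Gzmb) by 0.11, neutrophil elastase (Elane) by -0.18, and the lysosomal cathepsins Ctsb by -0.028 and Ctsl by 0.0088, each with overlapping groups; these 5 were chosen after their values were seen.

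Among acute phase genes and genes of the gp130 response, 25 of 30 passed the filter. limma called 7 of them higher and 0 lower, against 0.125% and 0.0182% of all features, and their median log2 difference was 0.80. The list was chosen with earlier results of these data known, so these counts are a description and nothing is read from them. The called genes were Socs3, the feedback inhibitor of this pathway, with a log2 difference of 2.71, Lrg1 with 2.11, Osmr, a receptor subunit that pairs with gp130, with 2.09, the endotoxin-binding protein Lbp with 1.80, Cebpd with 1.73, Timp1 with 1.66 and Stat3 with 0.74 (limma adjusted p from 0.0057 to 0.043). Not all acute phase genes of the list followed them. Saa1 differed by -0.13 and Saa2 by -0.11, with overlapping groups; both were chosen after their values were seen. The number called was 4 without Control replicate 1, 2 without NT-3N replicate 2 and 0 without NT-3N replicate 3, where 2384 features had an unadjusted p under 0.05.

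**Figure D3:**
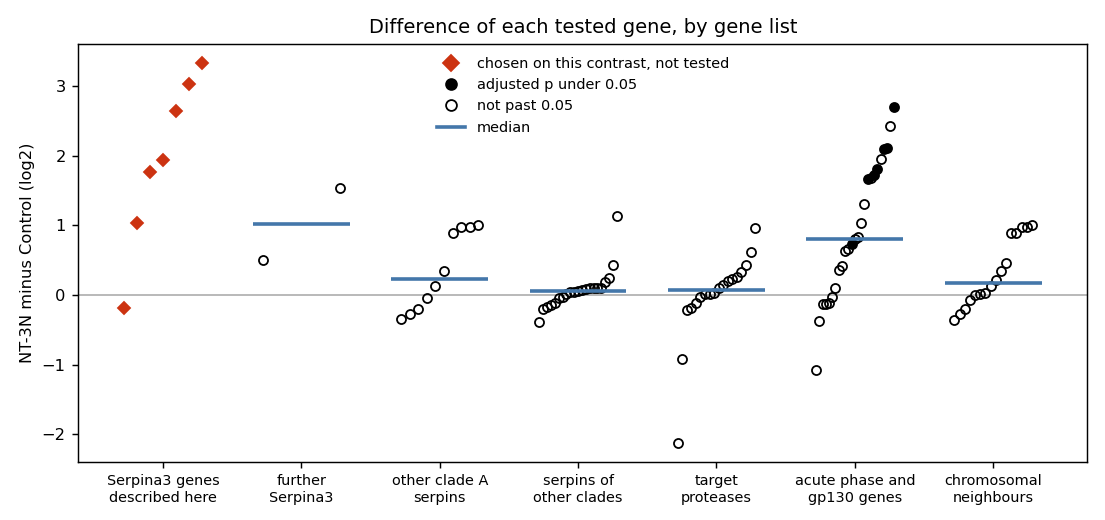
Log2 difference of NT-3N minus Control (vertical axis) for each tested gene of the members and 6 gene lists, cell type markers not included, sorted within the list, with filled circles past an adjusted p of 0.05 and blue lines at the list medians; diamonds are the members, which were chosen on this contrast, with Serpina3k at its lower bound. Of the lists plotted, the 7 filled circles all lie in the acute phase and gp130 list, and Serpina3b is the one diamond below 0. The lists were chosen with earlier results of these data known.

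The genes whose profile over the 5 arrays was nearest to that of Serpina3n were Krtap11-1, a hair keratin-associated protein, Socs3, the cytokine Il33, Serpina3m and the non-coding RNA Gm4827. Likeness was the root mean square distance between log2 profiles centred on each gene's mean, over 16733 other genes well above background on all arrays, and was 0.12, 0.34, 0.36, 0.51 and 0.53 for these genes. Krtap11-1 read 4.47 and 4.22 in Control and 7.47, 7.57 and 7.53 in NT-3N. Il33 read 7.30 and 7.25 in Control and 9.65, 9.97 and 10.05 in NT-3N. The 5 arrays fall into their 2 groups in each of these profiles, so the measure mainly finds genes with a difference of like size.

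**Figure D4:**
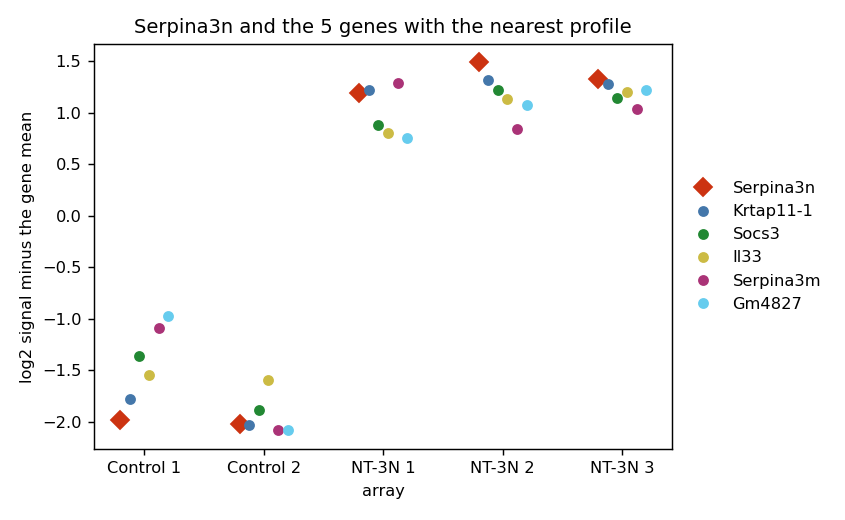
Log2 signal minus the gene's mean over the 5 arrays (vertical axis) on each array, for Serpina3n (diamonds) and the 5 genes with the nearest profile (circles). All 6 genes lie below 0 on both Control arrays and above 0 on the 3 NT-3N arrays, and Krtap11-1 stays closest to Serpina3n, at a root mean square distance of 0.12.

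The tissue label was checked against cell type markers. All 7 epithelial, 5 smooth muscle, 5 fibroblast and 4 endothelial markers were well above background on all 5 arrays, and limma called none of them (with 1 higher and 2 lower at an unadjusted p under 0.05). Of 6 liver genes, 4 were well above background on all arrays, and their summed linear signal overlapped between Control (4220 to 5193) and NT-3N (4550 to 5596). Of 3 neutrophil markers tested, 2 were higher in NT-3N and 1 was lower, and limma called none of them. S100a8 and S100a9 were well above background on all 3 NT-3N arrays and on neither Control array (limma adjusted p of 0.22 and 0.062). They passed the filter through the NT-3N arrays alone. Mpo was lower, with no overlap and a log2 difference of -0.57 (limma adjusted p = 0.50). The summed signal of the 3 markers was 47.7 to 50.7 in Control and 125.5 to 480.3 in NT-3N. That of 5 smooth muscle markers was lower in NT-3N, with 311800 to 392100 against 416900 to 435100 in Control. The summed signal of 5 B cell markers was 2412 and 501.7 in Control and 2372 to 3043 in NT-3N. Of 4 enteric glia markers, limma called 1 higher, Gfap, a filament protein of glial cells, which read 6.97 and 6.77 in Control and 8.83, 8.65 and 8.66 in NT-3N, a log2 difference of 1.84 (limma adjusted p = 0.012). The part of these cells in the Serpina3 values was not tested.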

How the data were processed

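Spot values were extracted by the authors with Agilent Feature Extraction 11.0.1.1. Their deposited scanner output holds, for each spot, a background-subtracted intensity that is not scaled between arrays, and flags. A second table from the authors, with quantile-normalized log2 values of 37380 probes, served as an alternative. All 5 arrays share 1 slide and scan time, so neither separates the groups.

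Control spots and between 69 and 184 outlier spots of 59305 per array were left out. Between 70.6% and 73.1% of probes were well above background and 0 spots were saturated; the number of arrays limits precision. The processed intensity was log2-transformed, averaged per probe and quantile-normalized. Accessions without version were matched to a RefSeq table (GRCm38.p6), which named 32994 of 56605 probes. The array header names another build, so no gene coordinates are given from that table other than those of the promoter sequences. Probes well above background on at least 2 of 5 arrays were kept, with the brightest per gene. NT-3N was compared with Control in limma 3.58.1 (R 4.3.3; lmFit, eBayes with intensity trend, two-sided, Benjamini-Hochberg adjustment over 32917 features, 17942 with a symbol), and the fit was tested on simulated data. Fold bounds set the NT-3N mean against the higher of the probe's Control signal and the lowest signal well above background on that array. They hold for this background correction only. Promoters were aligned with Biopython 1.88.

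The methods name a local-pooled-error test; it was run as an alternative. Other alternatives covered scaling, background correction, dim probes, variance, several probes, replicate block and each array left out. The second probe as an alternative was chosen after seeing the data. The members and gene lists were chosen with earlier results of these data known. Genes were named by rule: every member, every called gene of a list or else the 3 with the largest difference among those well above background on all arrays, and the 5 nearest profiles. 1 gene that the rule names is not reported here.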

Additional observations from a re-analysis of the deposited data

How the results depend on the processing

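Serpina3n had a log2 difference between 2.93 (normexp) and 3.36 (deposited log2 values) in 7 alternatives, and between 3.25 and 3.40 with each array left out. No member changed sign in any alternative run. The number of members higher was 3 with the deposited log2 values and 3 with probes well above background on all 5 arrays, where the other members are not tested, and 6 otherwise, also with each array left out (6 to 6). With any of its probes counted, the number of members called higher was 1 with the 75th percentile scaling, with no filter and without the trend, 2 with normexp, the deposited values, probes above background on all 5 arrays and robust variance, each adding Serpina3m, 3 with every probe tested (Serpina3m and Serpina3i added) and 3 with the local-pooled-error test (Serpina3m and Serpina3c added). The members were chosen on this contrast, so nothing is read from these counts of calls. The second probe gave 3.69 for Serpina3i, where Control was too dim to measure, and 1.41 for Serpina3f.

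Of all features limma called 41 higher and 6 lower. The counts were 2 and 0 with no filter on dim probes, 2 and 0 without the intensity trend (3941 and 3075 features at an unadjusted p under 0.05), and 192 and 156 with the local-pooled-error test. The calls numbered 50 and 11 with the deposited values, 54 and 15 under robust variance and 48 and 12 with every probe tested. They numbered 50 and 13 when a probe had to be above background on every array. With the 75th percentile scaling they numbered 40 and 5, and with normexp 38 and 4. Each array left out gave 0 to 114 higher and 0 to 16 lower calls, with 114 without Control replicate 2 and 0 higher without NT-3N replicate 3. The cause was not tested. With 1 Control array left out, the spread comes from NT-3N alone.

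The acute phase and gp130 list had 7 higher calls, 0 with no filter or without the trend, 11 with the local-pooled-error test and 0 to 8 with each array left out. The protease list had 1 lower call, Ctrb1, with the local-pooled-error test. The lists of other serpins, further Serpina3 genes and chromosomal neighbours had 0 calls in every alternative run.

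The replicate numbers were not taken as pairing, since same-numbered mice had correlations of 0.13 and 0.036 between their deviations. Under the replicate block Serpina3n differed by 3.34, and limma made 0 calls in either direction over all features (2488 had an unadjusted p under 0.05) and 0 among the members and the acute phase list.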
